A study of Rattus norvegicus with 9 samples.

Results

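Globin genes take up much of the RNA of any blood sample that still holds red cells. The 5 genes described here are Hba-a2_1 and Hba-a2_2 of the alpha globin locus and Hbb, LOC103694857 and LOC689064 of the beta globin locus. They were chosen from 22077 genes as the 5 with the largest sum of exon reads over all 9 libraries, so that sum is a description and carries no test. RNA came from the peripheral blood mononuclear cell fraction (PBMC) of Sprague-Dawley rats, and the 9 libraries form 3 groups of 3. The first group was kept in normoxia (day 0). The other groups went through Sugen-hypoxia (SuHx), a rat model of pulmonary hypertension that pairs a blocker of VEGF receptors with low oxygen, and were sampled at day 28 and at day 56. All rats carried the wild-type genotype, and the only controls were those of day 0, so day, age and treatment cannot be told apart. The labels do not say whether each library is its own rat, so every p-value reflects library-to-library spread, which may be technical.

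Hemoglobin carries oxygen as a tetramer of alpha-type and beta-type globin chains, each holding a heme group. The alpha and beta loci lie on different chromosomes, and red cell precursors transcribe both at very high rates and in near balance. Circulating reticulocytes and young red cells have lost their nucleus but still hold globin messenger RNA, which is why globin reads in a PBMC preparation are commonly taken as red cell RNA. The erythroid factors KLF1 and GATA1 activate the globin promoters, through CACCC and GATA motifs.

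The promoter windows of the adult globin genes are shown as sequence only, and their part in the levels below was not tested. They come from RefSeq (GRCr8, another build than that of the expression table) and cover the 150 bases before each gene start, written on the strand of the gene. Capitals mark every match, on either strand, to CCAAT, to CCNCNCCC (the CACCC box), to GATAA or to ATAAA (TATA-like). Hbb (chr1:167663722-167663871, minus strand) matched the table by symbol. Hbb-bs (chr1:167631631-167631780, minus strand) matched LOC689064 through its gene number. Hba-a2 (chr10:15829139-15829288, minus strand) and Hba-a1 (chr10:15842581-15842730, minus strand) could not each be tied to 1 of the lines Hba-a2_1 and Hba-a2_2.
Hbb: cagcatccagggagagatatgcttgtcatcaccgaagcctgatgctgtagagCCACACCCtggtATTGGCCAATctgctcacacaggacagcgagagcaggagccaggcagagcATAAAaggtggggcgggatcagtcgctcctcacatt
Hbb-bs: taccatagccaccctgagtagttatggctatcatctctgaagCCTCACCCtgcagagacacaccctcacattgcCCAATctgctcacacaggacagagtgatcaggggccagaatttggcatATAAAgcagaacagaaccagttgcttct
Hba-a2: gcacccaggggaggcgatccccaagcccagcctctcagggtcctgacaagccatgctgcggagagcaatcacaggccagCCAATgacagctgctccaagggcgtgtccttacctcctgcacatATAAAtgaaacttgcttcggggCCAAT
Hba-a1: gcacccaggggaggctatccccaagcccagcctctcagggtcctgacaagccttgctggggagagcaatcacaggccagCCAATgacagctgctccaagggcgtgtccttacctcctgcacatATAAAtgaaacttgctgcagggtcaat

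Positions are counted back from the gene start, with -1 the last base before it. Hbb held a CACCC box from -98 to -91, CCAAT from -81 to -77, the same letters on the other strand from -86 to -82, directly beside but not overlapping them, and ATAAA from -36 to -32. Hbb-bs held the CACCC box from -108 to -101, CCAAT from -76 to -72 and ATAAA from -28 to -24. In both alpha genes CCAAT lay from -71 to -67 and ATAAA from -27 to -23, and Hba-a2 held a further CCAAT from -5 to -1. The alpha windows were the same at 144 of 150 positions (96.0%). Hbb and Hbb-bs, compared base by base without gaps, were the same at 34 of 150, and Hbb and Hba-a2 at 33 of 150. A comparison without gaps misses stretches that are shifted. The letters CCAATctgctcacacaggacag start at -81 in Hbb and at -76 in Hbb-bs, so the low count does not show that the beta windows are unlike. These letters are common: of 33469 rat promoter windows of the same length, 23.5% held CCAAT, 34.3% CCNCNCCC, 14.2% GATAA and 25.7% ATAAA on either strand. None of these 4 windows held GATAA, and neither alpha window held CCNCNCCC, which says only that those letters are not in these stretches. A match is a description of letters and not a measured binding site.

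On rn6, the build of the expression table, Hba-a2_1 (ENSRNOG00000047321) lies at chr10:15589363-15590220 and Hba-a2_2 (ENSRNOG00000029886) at chr10:15602793-15603649. Hbb (ENSRNOG00000058105) lies at chr1:168971273-168972725 and LOC103694857 (ENSRNOG00000061299) at chr1:168957459-168958836. LOC689064 (ENSRNOG00000047098) spans chr1:168945448-168965566, an interval that contains LOC103694857. The values below are exon reads. The summed exon lengths in the table were 557 bases for Hba-a2_1, 556 for Hba-a2_2, 660 for Hbb, 623 for LOC103694857 and 1354 for LOC689064.

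Hba-a2_2 led all genes with 30760884 exon reads over the 9 libraries. Hbb followed with 22761376, LOC103694857 with 16348181, Hba-a2_1 with 13597416 and LOC689064 with 7989771 (3.18% of all exon reads). The next gene, Mt-co1, a mitochondrially encoded subunit of cytochrome oxidase, had 2495569 (0.993%), and after it came Eef1a1 with 1740152 and Mt-co3 with 1472211.

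Exon reads per library ranged from 22148400 to 39947430, so counting error on the shares below is small. The Wilson 95% intervals had half-widths of 0.00493 to 0.0200 percentage points and cover counting error only. No pair of replicates agreed within sampling noise, and each library counted as 1 sample. The leukocyte marker Ptprc stood at 1426 to 1917 CPM (exon reads relative to library size, scaled with TMM factors) over the 9 libraries. Markers of T cells, B cells, NK cells, monocytes and neutrophils were all detected, as the PBMC label says, and so were those of red cells and platelets, apart from the platelet glycoprotein Gp5 at 0 reads. Day 28 replicate 3 stood apart from the other day 28 libraries in globin reads. Normoxia replicate 1 stood apart in intron reads, which made up 23.0% of its reads in genes other than the 5, against 12.0% and 11.2% in normoxia replicates 2 and 3. The column names carry number codes whose meaning is not stated. Those of day 28 (068 to 070) form a run that no other group shares, so that run and the group cannot be told apart.

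The 5 genes together took 42.98%, 49.31% and 56.27% of exon reads in normoxia, 1.42%, 4.83% and 28.96% at day 28, and 40.5%, 43.3% and 44.4% at day 56. All 3 day 28 libraries lay below every library of the other groups, and they were also the most scattered. As group means, the share was 49.5% ± 6.65 in normoxia, 11.7% ± 15.01 at day 28 and 42.7% ± 2.01 at day 56 (SD, n = 3 each). In bulk RNA, fewer red cells and less globin RNA per red cell cannot be told apart. Set against 100 exon reads of all other genes, there were 75.4, 97.3 and 128.7 globin reads in normoxia, 1.44, 5.08 and 40.8 at day 28, and 68.1, 76.2 and 80.0 at day 56.

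**Figure D1:**
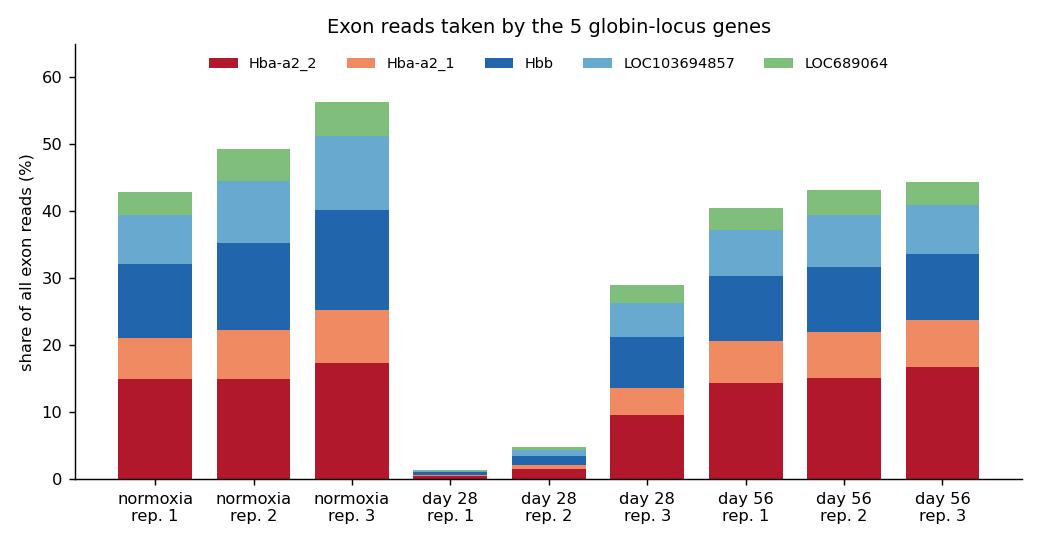
Share of all exon reads (%, y axis) taken by each of the 5 globin-locus genes in the 9 libraries (x axis, by group and replicate); bars are stacked by gene and there is 1 bar per library. Day 28 replicates 1 and 2 sit at 1.42% and 4.83%, day 28 replicate 3 at 28.96%, and all other libraries at 40.5% or above.

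The difference in mean share was -37.8 percentage points between day 28 and normoxia (exact two-sided permutation test, p = 0.1, adjusted p = 0.15). It was 31.0 percentage points between day 56 and day 28 (exact permutation p = 0.1, adjusted p = 0.15) and -6.78 between day 56 and normoxia (exact permutation p = 0.3, adjusted p = 0.386). With 3 libraries against 3, the smallest p this test allows is 0.1, so no result can pass 0.05. The adjusted values cover the 9 such tests made here, of 3 measures in 3 comparisons. The groups did not overlap where day 28 was compared and overlapped between day 56 and normoxia.

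Within the alpha locus, Hba-a2_2, an alpha globin gene, had 2912, 9741 and 79328 CPM at day 28, against 147278, 220555 and 303267 CPM in normoxia. At day 56 Hba-a2_2 had 148968, 161327 and 192749 CPM. Every day 28 library was below every other library, and the day 56 values fell within the normoxia range. Hba-a2_1, the neighbouring alpha copy, had 1143, 3631 and 34405 CPM at day 28, against 60334, 107879 and 137129 CPM in normoxia. At day 56 Hba-a2_1 had 64569, 72933 and 79616 CPM. The order of the 3 groups was the same for both alpha copies.

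In the beta locus, Hbb, the beta globin chain, had 2203, 8802 and 62441 CPM at day 28, against 108991, 189496 and 262838 CPM in normoxia. At day 56 Hbb had 101621, 102477 and 113936 CPM, with replicates 1 and 2 below the lowest normoxia library. LOC103694857, a line of the beta locus that the RefSeq tables used here do not name, had 1416, 5785 and 42812 CPM at day 28, against 71769, 136959 and 192294 CPM in normoxia. At day 56 LOC103694857 had 70634, 81806 and 83105 CPM. Its day 28 libraries were the lowest, and 1 day 56 library was just below the lowest of normoxia. LOC689064, Hbb-bs in RefSeq and another beta-type chain, had 715, 3114 and 21458 CPM at day 28, against 34476, 70044 and 86996 CPM in normoxia. At day 56 LOC689064 had 34383, 40405 and 40693 CPM. The same 3 libraries of day 28 were lowest for LOC689064, as for the other 4 genes.

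The spread between libraries was far larger than the differences between the members. From the lowest library (day 28 replicate 1 for all 5) to the highest (normoxia replicate 3 for all 5), the CPM differed by 104-fold for Hba-a2_2 to 136-fold for LOC103694857. Within a group, the highest library over the lowest was 2.06 to 2.68-fold in normoxia, 27.2 to 30.2-fold at day 28 and 1.12 to 1.29-fold at day 56. Across the 9 libraries, the log2 CPM of the 10 pairs of members correlated with Pearson's r of 0.996 to 0.9997. That is a description of 9 libraries that share their depth and scaling.

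Between day 28 and normoxia, none of the 5 genes passed the test, although their fitted levels were 7.30-fold (Hba-a2_2) to 8.02-fold (LOC103694857) lower at day 28. The log2 fold changes ran from -3.00 (LOC103694857, SE 1.07) to -2.87 (Hba-a2_2, SE 1.07), around a median of -2.93, against -0.01 over all 12447 genes tested. By edgeR's quasi-likelihood test with Benjamini-Hochberg adjustment over those genes, the adjusted p ran from 0.122 to 0.131. So 0 of 5 were called at an adjusted p under 0.05, where 0.129% of all genes were called (0.0402% as lower). At an unadjusted p under 0.05, 5 of 5 passed, beside 28.8% of all genes. The groups did not overlap for 5 of 5, in a comparison where 11.8% of all genes did so in that direction.

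These counts depended on single libraries. Without day 28 replicate 3, 5 of 5 were called, with log2 fold changes of -5.41 to -5.06 and edgeR adjusted p of 0.0101 to 0.0179, beside 3.07% of genes called (1.78% as lower). Without normoxia replicate 1, 3 of 5 were called (Hbb, LOC103694857 and LOC689064), with adjusted p of 0.0432 to 0.0520 over the 5 genes, in a fit that called 45.2% of all genes (22.2% as lower). DESeq2 called 5 of 5 with adjusted p of 0.00926 to 0.0195, beside 13.1% of genes (7.02% as lower).

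**Figure D2:**
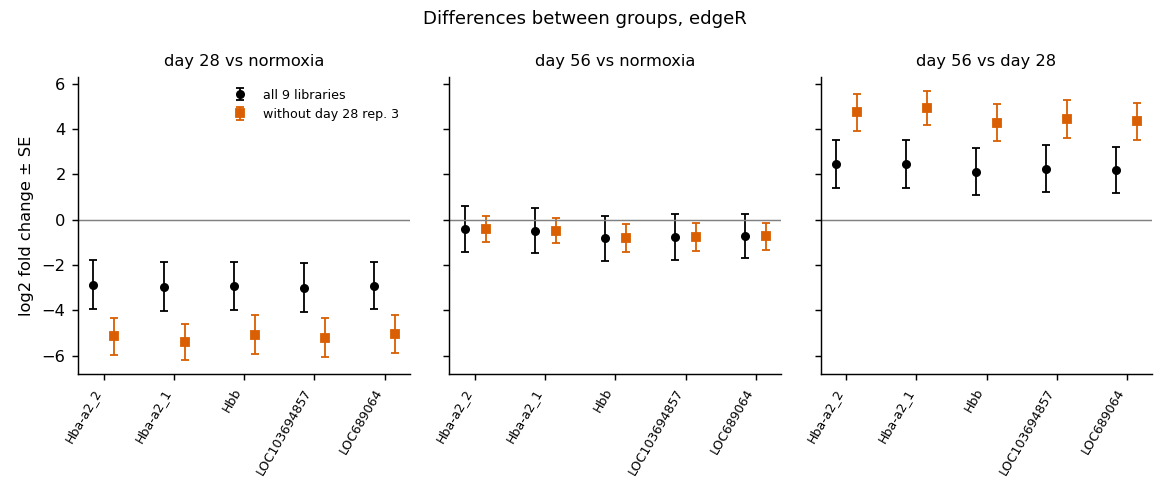
Log2 fold change ± SE from edgeR (y axis) for each of the 5 genes (x axis) in 3 comparisons (panels), with all 9 libraries (black circles) and without day 28 replicate 3 (orange squares). Leaving that library out moved the day 28 against normoxia values to between -5.41 and -5.06 and the day 56 against day 28 values to between 4.27 and 4.92, while the day 56 against normoxia values stayed between -0.82 and -0.42.

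Between day 56 and normoxia, none of the 5 genes passed the test. The 3 day 56 libraries lay close together (1.12 to 1.29-fold from lowest to highest) and those of normoxia farther apart (2.06 to 2.68-fold), while the fitted levels were 1.33-fold (Hba-a2_2) to 1.76-fold (Hbb) lower at day 56. The log2 fold changes were -0.42 for Hba-a2_2 (SE 1.00), -0.49 for Hba-a2_1 (SE 1.00), -0.73 for LOC689064 (SE 0.97), -0.77 for LOC103694857 (SE 1.00) and -0.82 for Hbb (SE 0.99). By edgeR's quasi-likelihood test the adjusted p ran from 0.601 to 0.802, and 0 of 5 were called, where 7.12% of all genes were called. At an unadjusted p under 0.05 the count was also 0 of 5, beside 30.9% of all genes. DESeq2 called 0 of 5, beside 18.5% of genes. The edgeR SEs above come from a fit over all 9 libraries, so the spread of the day 28 libraries enters them. With only the 2 groups compared, the SEs were 0.441 to 0.472. In that fit edgeR's adjusted p ran from 0.298 to 0.596, and 0 of 5 were called, beside 348 of 12055 genes. The groups overlapped for all 5, where 14.9% of all genes were lower without overlap. Both alpha values were less negative than all 3 beta values.

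All 5 genes had a higher mean at day 56 than at day 28. The log2 fold changes were 2.47 for Hba-a2_1 (SE 1.06), 2.45 for Hba-a2_2 (SE 1.05), 2.24 for LOC103694857 (SE 1.04), 2.19 for LOC689064 (SE 1.00) and 2.11 for Hbb (SE 1.03). By edgeR's quasi-likelihood test the adjusted p ran from 0.248 to 0.313 and 0 of 5 were called, where 0.546% of all genes were called (0.426% as higher). At an unadjusted p under 0.05, 2 of 5 passed (both alpha genes), beside 18.5% of all genes. The groups did not overlap for 5 of 5, where 17.8% of all genes did so in that direction. DESeq2 called 2 of 5 (Hba-a2_1 and Hba-a2_2), beside 7.93% of genes (4.37% as higher). Without day 28 replicate 3, 5 of 5 were called, with log2 fold changes of 4.27 to 4.92 and edgeR adjusted p of 0.0232 to 0.0412, beside 2.08% of genes (1.46% as higher). These comparisons share libraries, so their values are not independent.

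The values also depended on the scaling. With library totals alone in place of TMM factors, the median log2 fold change of all genes tested moved to 0.96 between day 28 and normoxia, 0.24 between day 56 and normoxia and -0.70 between day 56 and day 28. Relative to that median, the 5 genes stood at -3.09 to -2.99, at -0.65 to -0.27 and at 2.36 to 2.73. All 5 were called between day 28 and normoxia under that scaling (edgeR adjusted p 0.0371 to 0.0416), in a fit that called 57.3% of all genes (1.2% as lower).

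A ratio of alpha-locus to beta-locus reads does not depend on library scaling. Exon reads of the 2 alpha genes over those of the 3 beta genes gave 0.965, 0.828 and 0.812 in normoxia, 0.936, 0.755 and 0.898 at day 28, and 1.03, 1.04 and 1.15 at day 56. All 3 day 56 libraries lay above all 6 others. On the log2 scale the difference was 0.31 between day 56 and normoxia (1.24-fold, exact two-sided permutation p = 0.1, adjusted p = 0.15). It was 0.32 between day 56 and day 28 (1.25-fold, exact permutation p = 0.1, adjusted p = 0.15). Between day 28 and normoxia it was -0.01 (exact permutation p = 1, adjusted p = 1), although the globin share differed most there. That last value changed sign without day 28 replicate 2 (0.082) and without normoxia replicate 1 (0.067).

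The same direction held in uniquely mapped reads alone, where the ratio was 1.16, 1.02 and 0.992 in normoxia, 1.11, 0.902 and 1.09 at day 28, and 1.26, 1.27 and 1.38 at day 56. Per exon length, as the sum of the authors' RPKM, the ratio was 1.10 ± 0.104 in normoxia, 1.10 ± 0.118 at day 28 and 1.37 ± 0.0790 at day 56 (SD, n = 3 each). The size of the day 56 difference depended on the libraries compared. Between the libraries with codes 046 and 047 (replicate 1 of day 56 and of normoxia) it was 0.10 on the log2 scale, and among codes 061 to 064 (replicates 2 and 3 of both) it was 0.41.

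**Figure D3:**
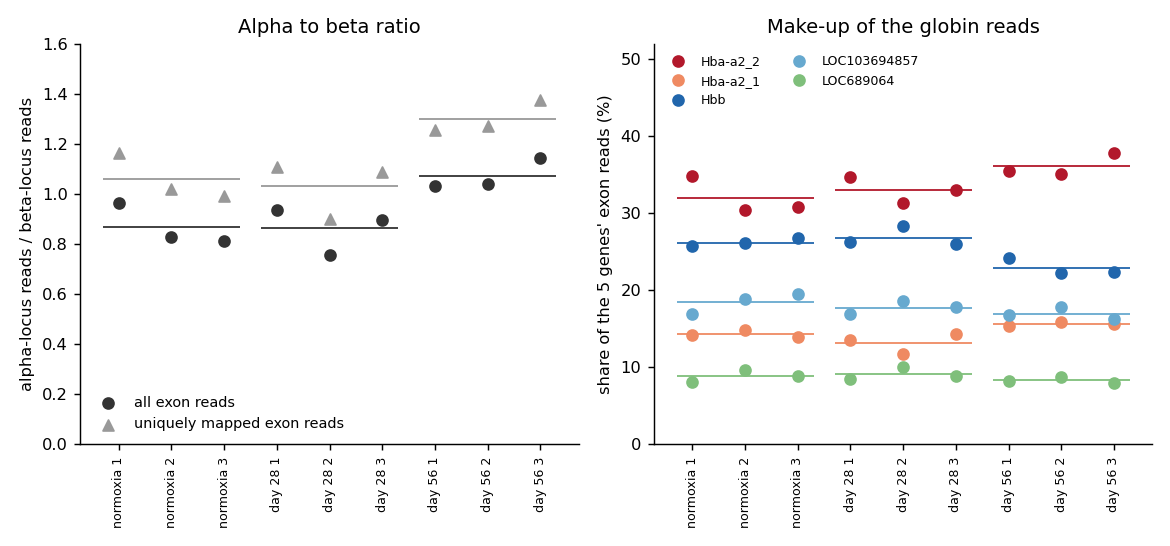
Left, ratio of alpha-locus to beta-locus exon reads (y axis, no unit) by library (x axis), for all exon reads (circles) and uniquely mapped ones (triangles); right, share (%) of the 5 genes' exon reads taken by each gene; lines are group means of 3 libraries. The day 56 ratios of all exon reads lie between 1.03 and 1.15, above all 6 other libraries, and the Hbb share is lowest at day 56.

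Within the pooled reads of the 5 genes, Hbb made up 25.8% to 26.8% in normoxia, 26.0% to 28.3% at day 28 and 22.3% to 24.2% at day 56. Its day 56 libraries lay below all 6 others. Hba-a2_2 made up 30.4% to 34.8% in normoxia, 31.3% to 34.7% at day 28 and 35.2% to 37.8% at day 56, where all 3 libraries lay above the others. Hba-a2_1 took 13.96% to 14.9% in normoxia, 11.7% to 14.3% at day 28 and 15.4% to 15.9% at day 56, which was again above the other libraries. LOC103694857 (16.3% to 19.6% over all 9 libraries) and LOC689064 (7.98% to 10.02%) overlapped between all groups. These shares sum to a fixed total, so they are not separate results, and no test was made of them.

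Per exon length, Hba-a2_2 had the highest level in all 9 libraries by the authors' RPKM, and LOC689064 the lowest. As means, Hba-a2_2 stood at 220490 ± 25657 RPKM at day 56, against 242336 ± 34412 in normoxia (SD, n = 3 each). Hbb came second in every library, at 117512 ± 5259 RPKM at day 56 and 168916 ± 36138 in normoxia (SD, n = 3 each). LOC103694857 came next, followed by Hba-a2_1, except in day 56 replicates 1 and 3, where Hba-a2_1 was above LOC103694857. At day 56 those neighbours stood at 95074 ± 9031 RPKM for Hba-a2_1 and 92278 ± 8246 for LOC103694857 (SD, n = 3 each), a difference smaller than their spread. LOC689064 stood at 20818 ± 1996 RPKM at day 56 and 28012 ± 6740 in normoxia (SD, n = 3 each). Its long span takes in another member, and the sources used here do not say how reads there were assigned.

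The members have near-identical copies, so how reads map bears on each value. LOC103694857 had 30.6% to 35.8% of its exon reads mapped uniquely, the lowest of the 5. The unique share was 90.9% to 92.5% for Hbb, 84.2% to 86.3% for Hba-a2_1 and 84.4% to 86.1% for Hba-a2_2. It was 82.99% to 88.1% for LOC689064. The level of LOC103694857 is therefore the least certain, since most of its reads could also have come from another place in the genome. The split between Hba-a2_1 and Hba-a2_2 is uncertain as well. Their ratio in all exon reads was 0.410 to 0.489 in normoxia, 0.373 to 0.434 at day 28 and 0.413 to 0.452 at day 56. It was 0.409 to 0.489 in normoxia, 0.373 to 0.433 at day 28 and 0.413 to 0.452 at day 56 in uniquely mapped reads. In reads not mapped uniquely it was 0.415 to 0.489 in normoxia, 0.372 to 0.435 at day 28 and 0.412 to 0.450 at day 56. How such reads were shared between the copies is not stated, so the likeness of these ratios does not check the split.

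Over the 5 genes together, 77.9%, 78.1% and 78.5% of exon reads mapped uniquely at day 56 and 79.3%, 78.1% and 78.1% at day 28, against 77.0%, 76.5% and 77.0% in normoxia. All 6 SuHx libraries lay above all 3 of normoxia. The difference from normoxia was 1.67 percentage points at day 28 and 1.35 at day 56 (exact two-sided permutation p = 0.1 and adjusted p = 0.15 for each). Between day 56 and day 28 it was -0.32 percentage points (exact permutation p = 0.5, adjusted p = 0.562), and it changed sign without day 28 replicate 1 (0.077). Whether this difference has a part in the alpha to beta ratio was not tested.

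Few reads of the 5 genes were intronic. Of their exon reads, 54.4% ± 0.378 crossed an exon-exon junction in normoxia, 54.3% ± 0.668 at day 28 and 56.8% ± 1.03 at day 56 (SD, n = 3 each). The lowest day 56 library stood at 55.7% and the highest other library at 54.8%. Intron reads were 0.279% ± 0.0232 of all reads in the 5 genes in normoxia, 0.233% ± 0.00699 at day 28 and 0.291% ± 0.0178 at day 56 (SD, n = 3 each). In all other genes they were 11.2% to 23.0% in normoxia, 18.8% to 25.2% at day 28 and 19.5% to 25.3% at day 56. LOC689064 had the most intron reads among the 5, between 1.29% and 2.05% of its reads, and Hbb between 0.0205% and 0.0314%. The span of LOC689064 contains LOC103694857, and whether reads of that gene were counted as its intron reads was not tested.

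**Figure D4:**
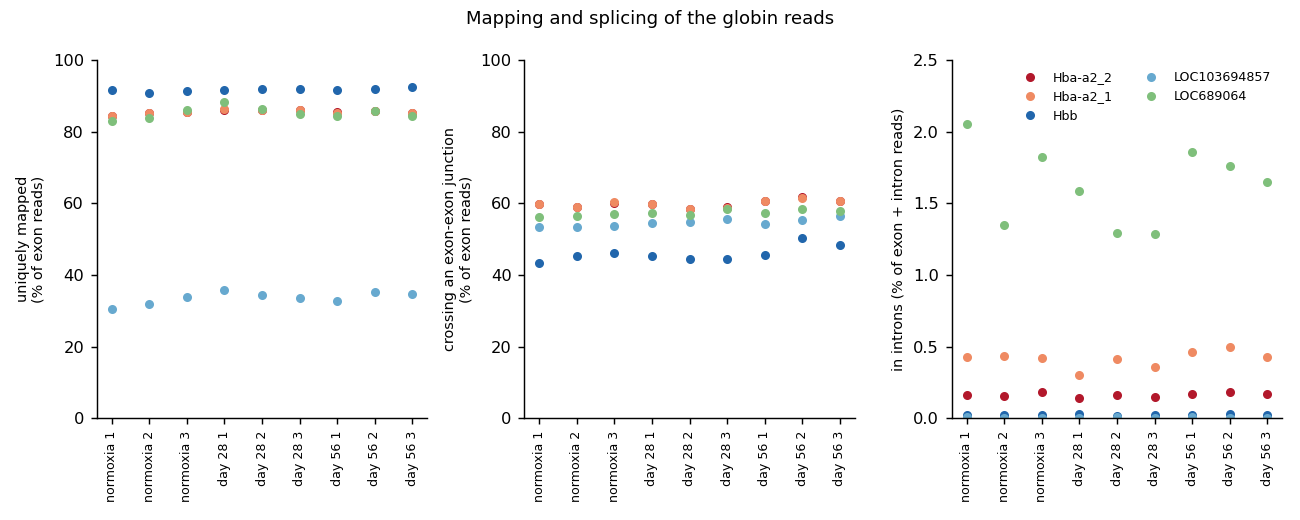
For each of the 5 genes (colours) in the 9 libraries (x axes): the share of exon reads that mapped uniquely (left, %), the share that crossed an exon-exon junction (middle, %) and intron reads as a share of exon and intron reads (right, %). LOC103694857 stands apart with 30.6% to 35.8% unique reads, and LOC689064, whose span contains LOC103694857, with 1.29% to 2.05% intron reads.

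The table holds 6 further globin genes. Hba-a3, an alpha-type gene of the same locus (chr10:15577248-15577977), had 22.0, 54.5 and 243.2 CPM at day 28, against 733.3, 1688 and 1666 CPM in normoxia. At day 56 Hba-a3 had 913.4, 1135 and 1318 CPM. Its day 28 libraries lay below all others, with a log2 fold change of -3.68 against normoxia (SE 0.79, edgeR adjusted p = 0.0681). Hbq1a, theta globin, a minor gene of the alpha locus that lies between Hba-a2_1 and Hba-a2_2, had 0.851, 2.69 and 14.2 CPM at day 28, against 32.3, 68.9 and 107.0 CPM in normoxia. At day 56 Hbq1a had 39.9, 51.2 and 44.1 CPM. Its log2 fold change between day 28 and normoxia was -3.56 (SE 0.85, edgeR adjusted p = 0.0798). As for the 5 genes, day 28 replicate 3 was the highest of its group for both. Each passed in 5 of 19 alternatives: library totals alone, the replicate block, DESeq2, without normoxia replicate 1 and without day 28 replicate 3. Of all genes, 57.3% were called with library totals alone, 13.1% by DESeq2, 45.2% without normoxia replicate 1 and 3.07% without day 28 replicate 3. The replicate block called 223 of 12447 genes. Without day 28 replicate 3 the log2 fold changes were -5.15 for Hba-a3 and -5.28 for Hbq1a, and with library totals alone -2.78 and -2.63. Over the alternatives the adjusted p ran from 9.0e-06 to 0.227 for Hba-a3 and from 0.00417 to 0.234 for Hbq1a.

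The embryonic-type genes had far fewer reads. Hbe1, epsilon globin, had 18 to 91 reads per library and was tested. It stood at 0.984, 1.27 and 1.66 CPM at day 28, against 0.750, 1.62 and 5.90 CPM in normoxia, with a log2 fold change of -1.05 (SE 0.64, edgeR adjusted p = 0.287). The groups overlapped, and this sign turned without normoxia replicate 3 and with library totals alone. Between day 56 and normoxia the log2 fold changes were -0.28 for Hba-a3, -0.62 for Hbq1a and -0.71 for Hbe1 (edgeR adjusted p 0.815, 0.611 and 0.473), and the sign turned for Hba-a3 with library totals alone and for Hbe1 without normoxia replicate 3. Hbe2 had 0 to 1 reads per library, Hbg1 0 to 5 and Hbz 0 to 3, at or near the limit of 3 reads, and they were not tested. Of the 3 tested genes, edgeR called 0 in each comparison, with 2 at an unadjusted p under 0.05 in both comparisons that involve day 28 and 0 between day 56 and normoxia. DESeq2 called the same numbers, 2, 2 and 0. At an unadjusted p under 0.05, 28.8% of all genes passed between day 28 and normoxia and 18.5% between day 56 and day 28. By DESeq2 those shares were 13.1% and 7.93%. Between day 56 and normoxia the shares were 30.9% unadjusted and 18.5% by DESeq2. The shares of all genes called by edgeR were 0.129% between day 28 and normoxia, 7.12% between day 56 and normoxia and 0.546% between day 56 and day 28.

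**Figure D5:**
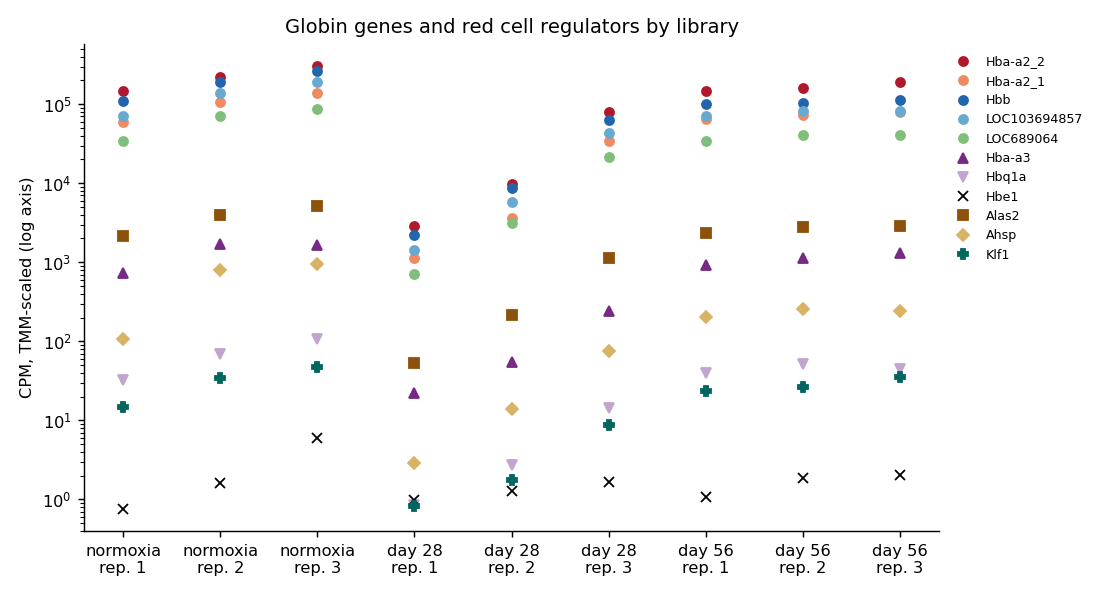
CPM (y axis, log scale, TMM-scaled) of the 5 globin-locus genes, of Hba-a3, Hbq1a and Hbe1, and of Alas2, Ahsp and Klf1 in the 9 libraries (x axis); 1 point per library. All but Hbe1 are lowest in day 28 replicates 1 and 2; in day 28 replicate 1 the points of Hbq1a (0.851 CPM) and Klf1 (0.824 CPM) lie on each other.

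A list of 18 regulators of globin genes and genes of heme supply and hemoglobin assembly was examined next, and all 18 were tested. It holds activators such as Klf1 and Gata1 as well as the repressors Bcl11a, Zbtb7a, Sox6 and Bach1 and the kinase Eif2ak1, which inhibits globin translation when heme is short, so a count over the list has no single meaning for globin output. Between day 28 and normoxia, edgeR called 1, as lower, where 0.129% of all genes were called (0.0402% as lower). Of the 18, 13 had a negative log2 fold change, and the median was -1.004. In that comparison 13 of 18 passed an unadjusted p under 0.05, where 28.8% of all genes did, and DESeq2 called 11 of 18, beside 13.1% of genes. Named after their values were seen, the repressors stood at log2 fold changes of 0.91 (Zbtb7a), 0.51 (Bach1), 0.40 (Bcl11a) and -4.04 (Sox6), and none of these 4 passed (edgeR adjusted p 0.114, 0.194, 0.392 and 0.0628). Sox6 rested on few reads: it had 0.173 ± 0.212 CPM at day 28, against 2.78 ± 1.62 CPM in normoxia (SD, n = 3 each). For day 56 and normoxia edgeR called 0 of 18, where 7.12% of all genes were called, and the median was -0.10. There 4 of 18 passed an unadjusted p under 0.05 (30.9% of all genes) and DESeq2 called 3 of 18 (18.5% of genes), so neither count stood above the background. Between day 56 and day 28 edgeR called 1, as higher, where 0.546% of all genes were called (0.426% as higher). The median there was 1.05. At an unadjusted p under 0.05, 13 of 18 passed (18.5% of all genes), and DESeq2 called 10 of 18 (7.93% of genes).

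The called gene was Slc25a37, mitoferrin, which imports iron into the mitochondria of red cell precursors for heme synthesis. It had 9.97, 11.1 and 15.3 CPM at day 28, against 32.8, 29.5 and 44.3 CPM in normoxia. At day 56 it had 29.0, 31.8 and 30.0 CPM. Slc25a37 fell at day 28 (log2 fold change -1.55, SE 0.21, edgeR adjusted p = 0.0459) and was higher at day 56 than at day 28 (log2 fold change 1.32, SE 0.21, edgeR adjusted p = 0.0330). The first call held in 8 of 19 alternatives, with adjusted p of 1.95e-07 to 0.204, and was lost without any 1 of normoxia replicates 2 and 3, day 28 replicates 1 and 2 and all day 56 replicates. It was also lost with RLE factors, with only the 2 groups compared, with library totals alone (log2 fold change -0.58) and with exon plus intron reads (-0.93). The second held in 12 of 19, with adjusted p of 1.18e-05 to 0.143, and was lost without day 28 replicate 1 or 2 or any day 56 replicate, with library totals alone (0.68) and with exon plus intron reads (0.79).

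Klf1, the erythroid factor that binds CACCC boxes of the beta globin promoter, had 0.824, 1.78 and 8.79 CPM at day 28, against 14.7, 34.4 and 47.1 CPM in normoxia. At day 56 Klf1 had 23.3, 26.2 and 34.99 CPM. Gata1, the erythroid and megakaryocytic GATA factor, had 4, 0 and 36 reads at day 28, against 108, 70 and 78 reads in normoxia, and 84, 173 and 217 reads at day 56. For both factors the day 28 libraries were the lowest of all. The log2 fold changes between day 28 and normoxia were -3.09 for Klf1 (SE 0.77, edgeR adjusted p = 0.0826) and -3.32 for Gata1 (SE 0.98, edgeR adjusted p = 0.0965).

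Ahsp, the chaperone that holds free alpha globin, had 2.87, 13.8 and 76.5 CPM at day 28, against 106.9, 802.9 and 951.6 CPM in normoxia. At day 56 Ahsp had 204.6, 254.3 and 238.5 CPM. Its log2 fold change was -4.32 at day 28 (SE 1.14, edgeR adjusted p = 0.0892) and -1.42 at day 56 (SE 1.01, edgeR adjusted p = 0.358), and neither passed. Alas2, the erythroid enzyme that starts heme synthesis, had 52.5, 213.5 and 1124 CPM at day 28, against 2133, 3934 and 5225 CPM in normoxia. At day 56 Alas2 had 2318, 2797 and 2856 CPM. Its log2 fold change at day 28 was -3.02 (SE 0.90, edgeR adjusted p = 0.0986). Between day 28 and normoxia, Klf1, Gata1, Ahsp and Alas2 all passed without day 28 replicate 3, without normoxia replicate 1 and with library totals alone. In the same order, those fits called 3.07%, 45.2% and 57.3% of all genes (1.78%, 22.2% and 1.2% as lower). None of these genes passed between day 56 and normoxia in any alternative. Over the alternatives, the day 28 values ran from -4.61 to -2.14 for Klf1, from -6.15 to -2.52 for Gata1, from -6.21 to -3.34 for Ahsp and from -4.82 to -2.14 for Alas2.

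Of 11 genes that clear free hemoglobin, heme or iron, such as haptoglobin and heme oxygenase 1, 8 were tested. By edgeR 0 of 8 were called in each comparison, with 5 between day 28 and normoxia, 1 between day 56 and normoxia and 5 between day 56 and day 28 at an unadjusted p under 0.05. The shares of all genes at that threshold were 28.8%, 30.9% and 18.5%, and the shares called by edgeR were 0.129%, 7.12% and 0.546%. DESeq2 called 4, 0 and 5 of 8, beside 13.1%, 18.5% and 7.93% of genes. The medians were 0.19, -0.22 and -0.52 in the same order. The 5 that passed unadjusted between day 28 and normoxia went both ways. Their log2 fold changes were 1.74 (Lrp1), 1.12 (Hmox1), -2.55 (Blvrb), -1.38 (Ftl1) and -1.34 (Fth1), so a count over the list has no single direction.

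The 10 tested genes whose log2 CPM followed the mean of the 5 most closely over the 9 libraries were Add2, Bpgm, Alas2, Fech, Fam214b, Pklr, Aqp1, Slc4a1, RGD1310507 and Cd52, with Pearson's r of 0.999 (Add2) to 0.994 (Cd52). Add2 is an adducin of the red cell skeleton, Bpgm makes the phosphate that tunes oxygen release, Fech completes heme, Pklr is the pyruvate kinase of liver and red cells, and Slc4a1 is the band 3 anion exchanger. No role is given here for Fam214b, Aqp1, RGD1310507 and Cd52, so the roles named do not describe the list as a whole. The cell source of the 10 genes was not tested. Pklr was low throughout, with 0, 0.0508 and 0.416 CPM at day 28, against 0.708, 1.18 and 2.08 CPM in normoxia, and 0.671, 0.925 and 0.804 CPM at day 56. Add2 had 3.01, 12.1 and 75.9 CPM at day 28, against 130.2, 214.3 and 293.6 CPM in normoxia, and 149.0, 161.2 and 169.5 CPM at day 56. By the same measure r was 0.998 for Alas2, 0.992 for Hbq1a, 0.983 for Klf1, 0.981 for Hba-a3, 0.974 for Ahsp, 0.924 for Slc25a37, 0.884 for Gata1 and 0.477 for Hbe1. These are descriptions over 9 libraries that share the 1 large contrast of day 28.

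The summed level of red cell markers was also lowest at day 28. Of 20 markers 19 were tested, and their summed level was 491.0 to 2568 CPM at day 28, against 3573 to 7537 CPM in normoxia, and 5797 to 6496 CPM at day 56. Tmcc2 made up much of the day 56 sum: without it, in a sum added after seeing the data, the level was 461.1 to 2478 CPM at day 28, against 3410 to 7299 CPM in normoxia, and 3881 to 4117 CPM at day 56. Of the 19 markers, 16 had a negative log2 fold change between day 56 and normoxia. All 19 had a negative log2 fold change between day 28 and normoxia, with a median of -2.50. There edgeR called 0 of 19, where 0.129% of all genes were called (0.0402% as lower). At an unadjusted p under 0.05, 15 of 19 passed, beside 28.8% of all genes, and DESeq2 called 11 of 19, beside 13.1%. Between day 56 and normoxia the median was -0.29 and 2 were called, both as higher (2 at an unadjusted p under 0.05, 2 by DESeq2), where 3.42% of all genes were called as higher. The median between day 56 and day 28 was 2.02, and 2 were called as higher, where 0.546% of all genes were called (0.426% as higher). There 13 of 19 passed an unadjusted p under 0.05, beside 18.5% of all genes, and DESeq2 called 9 of 19, beside 7.93%.

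The called genes were Tmcc2, a gene with high red cell expression, and Xpo7, an exportin of late red cell precursors. Tmcc2 had 2199 ± 248.0 CPM at day 56, against 219.2 ± 49.96 CPM in normoxia (SD, n = 3 each), a log2 fold change of 3.33 (SE 0.53, edgeR adjusted p = 0.0120). Xpo7 had 125.8 ± 11.4 CPM at day 56, against 75.96 ± 3.30 CPM in normoxia (SD, n = 3 each), a log2 fold change of 0.73 (SE 0.14, edgeR adjusted p = 0.0236). Both were also higher at day 56 than at day 28, with log2 fold changes of 4.57 (SE 0.56, edgeR adjusted p = 0.0195) for Tmcc2 and 0.93 (SE 0.14, edgeR adjusted p = 0.0325) for Xpo7. Against normoxia, the Tmcc2 call held in 16 of 19 alternatives and was lost without normoxia replicate 2 or 3 or day 56 replicate 2, with adjusted p up to 0.0549. The Xpo7 call held in 12 of 19, with adjusted p up to 0.109, and was lost without normoxia replicate 2 or 3 or any day 56 replicate, with library totals alone and with only the 2 groups compared. Against day 28, the Tmcc2 call held in 16 of 19 and was lost without any 1 of the day 56 replicates. The Xpo7 call against day 28 held in 10 of 19 and was lost without any 1 library other than normoxia replicate 1 and day 28 replicate 3, with exon plus intron reads and with library totals alone (log2 fold change 0.27).

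The summed levels of platelet, monocyte and neutrophil markers also differed between libraries, and their part in the globin results was not tested. The summed level of 10 platelet markers was 586.9 to 927.1 CPM at day 28 and 1888 to 3709 CPM at day 56, against 753.9 to 3383 CPM in normoxia, with Gp5 at 0 reads throughout. Counts below stand against shares of all genes at an unadjusted p under 0.05 of 28.8% between day 28 and normoxia, 30.9% between day 56 and normoxia and 18.5% between day 56 and day 28, and by DESeq2 of 13.1%, 18.5% and 7.93% in the same order. The shares called by edgeR were 0.129%, 7.12% and 0.546% in that order. All 9 tested platelet markers had a negative log2 fold change between day 28 and normoxia (median -1.69), and edgeR called 0 (9 at an unadjusted p under 0.05, 8 by DESeq2). It also called 0 between day 56 and normoxia (0 at an unadjusted p under 0.05, 0 by DESeq2) and 0 between day 56 and day 28 (7 at an unadjusted p under 0.05, 7 by DESeq2). The 6 monocyte markers summed to 3018 to 9934 CPM at day 28 and 1571 to 2512 CPM at day 56, against 2008 to 4271 CPM in normoxia. Their median log2 fold change between day 28 and normoxia was 1.21, and edgeR called 0 of 6 (4 at an unadjusted p under 0.05, 3 by DESeq2). It called 0 of 6 between day 56 and normoxia (1 at an unadjusted p under 0.05, 0 by DESeq2) and 0 of 6 between day 56 and day 28 (5 at an unadjusted p under 0.05, 5 by DESeq2). The 6 neutrophil markers summed to 96.2 to 267.7 CPM at day 28 and 56.5 to 93.0 CPM at day 56, against 42.3 to 92.5 CPM in normoxia. All 5 tested neutrophil markers had a positive log2 fold change between day 28 and normoxia, with a median of 0.98. Of 6 T cell, 5 NK cell, 5 neutrophil and 1 leukocyte markers tested, edgeR called 0 in every comparison, with 2, 0, 1 and 0 at an unadjusted p under 0.05 between day 28 and normoxia and 0 in all 4 lists by DESeq2. At an unadjusted p under 0.05 the counts in the same order were 0, 1, 0 and 0 between day 56 and normoxia (0 by DESeq2) and 1, 2, 1 and 0 between day 56 and day 28, where DESeq2 called 2 of the NK cell markers. Of 5 B cell markers, edgeR called 0 between day 28 and normoxia (2 at an unadjusted p under 0.05, 1 by DESeq2), 1 between day 56 and normoxia (2 and 2) and 0 between day 56 and day 28 (0 and 0). The called gene, Cd79b, a chain of the B cell receptor, was lower at day 56, at 157.9 ± 29.9 CPM against 478.5 ± 192.0 CPM in normoxia (SD, n = 3 each; log2 fold change -1.60, SE 0.33, edgeR adjusted p = 0.0257), where 3.7% of all genes were called as lower. That call held in 12 of 19 alternatives, with adjusted p up to 0.146, and was lost without normoxia replicate 2 or 3 or any day 56 replicate, with library totals alone and with only the 2 groups compared. Between day 28 and normoxia Cd79b stood at -1.08 (SE 0.32, edgeR adjusted p = 0.0988).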

How the data were processed

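RNA sequencing of 9 rat PBMC libraries (3 groups of 3) was analysed from 1 deposited table. Its columns hold, per the file headers, the exon reads, uniquely mapped exon reads, exon plus intron reads, intron reads, exon-exon junction reads and RPKM of each gene and library. The deposited read columns are raw counts; in some of them a fraction on a broken line makes the deposited values formally estimated counts, and no rounding was needed on the lines used. The authors computed RPKM, as deposited, per exon length and mapped reads. Per the submitters' processing notes, the build was rn6 and FastQC was among the tools. The aligner, its handling of multiply mapped reads and strand: not given in the sources used here. Of 22085 lines, 22077 held intact genes and 8 broken lines (Bmp4, Ctnnb1, Shh and Wnt5a) were left out; 72 further columns of values per sample were not used.

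Counts were tested with edgeR 4.0.16 in R 4.3.3 (robust glmQLFit and glmQLFTest, TMM factors, filterByExpr, 1 mean per group over all 9 libraries). Benjamini-Hochberg adjustment ran over the 12447 genes tested, and a gene was called at an adjusted p under 0.05. SEs come from the F statistic. Shares and ratios were tested by exact two-sided permutation over libraries. DESeq2 1.42.0, other scalings, other reads, no filter, the replicate number as a block and leaving out each library were alternatives. The edgeR procedure was tested on simulated counts. Exon reads per library were 22148400 to 39947430, so a count of 3 reads is 0.0762 to 0.195 CPM; intervals cover counting error only.

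The members and lists were chosen with earlier results of these data known. Named genes were the 5 members, all other globin genes, Klf1, Gata1, Ahsp, Alas2 and Slc25a37, called members of the lists (up to 5 per list and comparison), the 10 genes most alike and the 3 next in reads. Promoters and names came from RefSeq (GRCr8), whose symbols matched 16511 of the table's genes.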

Additional observations from a re-analysis of the deposited data

How the results depend on the processing

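Over 19 alternatives, the log2 fold changes of the 5 genes kept their direction in all 3 comparisons. They ran from -5.41 to -2.03 between day 28 and normoxia (adjusted p 0.00926 to 0.345), from -1.08 to -0.03 between day 56 and normoxia (0.298 to 0.986) and from 1.56 to 4.92 between day 56 and day 28 (0.0232 to 0.610). Of 285 such values, 260 stayed on the same side of the threshold and 25 passed it only under the alternative. Between day 28 and normoxia the count of members called was 5 with DESeq2 (13.1% of all genes) and 5 with library totals alone (57.3%). It was 0 to 5 when 1 library was left out. Leaving out day 28 replicate 3 gave 5 (3.07% of all genes), and leaving out normoxia replicate 1 gave 3 (45.2%). Between day 56 and day 28 the count was 2 with DESeq2 (7.93%) and 0 to 5 when 1 library was left out. The 5 came without day 28 replicate 3 (2.08%). The cause was not tested. When 1 library was left out, the log2 alpha to beta difference between day 28 and normoxia ran from -0.072 to 0.082 (0.082 without day 28 replicate 2, 0.067 without normoxia replicate 1), and the difference in the unique share between day 56 and day 28 from -0.53 to 0.077 percentage points (0.077 without day 28 replicate 1). Between libraries with codes 046 and 047 alone, chosen after seeing the data, the alpha to beta difference between day 56 and normoxia was 0.10.

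The named genes outside the 5 were put through the same alternatives, a choice made after seeing the data. With library totals alone the sign turned for Hba-a3 (0.12), Klf1 (0.25) and Slc25a37 (0.094) between day 56 and normoxia and for Hbe1 between day 28 and normoxia (0.11). Without normoxia replicate 3 it turned for Hbe1 (0.14 between day 28 and normoxia, 0.48 between day 56 and normoxia) and Klf1 (0.21 between day 56 and normoxia). Leaving out 1 library gave ranges of -1.47 to 0.14 and -1.14 to 0.48 for Hbe1 in those comparisons and -0.51 to 0.21 for Klf1 between day 56 and normoxia. None of these turned values was called.

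The same replicate numbers do not show that libraries are paired: deviations from the group means of same-numbered libraries correlated at -0.14 to 0.16. With the replicate block, 0 of 5 members were called in each comparison, with log2 fold changes of -3.87 to -3.69 between day 28 and normoxia, -0.59 to -0.28 between day 56 and normoxia and 3.11 to 3.57 between day 56 and day 28. The replicate block gave Klf1 0.0037 between day 56 and normoxia. Counts of all genes called moved from 16 to 223 for day 28 and normoxia, from 886 to 540 for day 56 and normoxia and from 68 to 186 for day 56 and day 28 under the block. For shares and ratios the sign-flip test over 3 pairs cannot give a p below 0.25.

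Depth limited Hbe2, Hbg1 and Hbz, which had at most 5 reads in a library.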
